A study of Mus musculus with 4 samples.

Results

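The genes described here are 10 genes of bone morphogenetic protein (BMP) signalling, namely the ligands Bmp2, Bmp4 and Bmp7, the receptor Bmpr1a, the extracellular antagonist Grem1, the inhibitory signal transducer Smad6 and the inhibitor of DNA binding genes Id1, Id2, Id3 and Id4. They were chosen by name as a pathway, and all probes carrying these names on the arrays were used. This gave 11 probes for 10 genes, of 55681 probes for 34813 genes or transcripts in all. Bmp4 had 2 probes and each of the other genes had 1.

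The cells were mouse embryonic fibroblasts (MEFs) in the course of reprogramming towards induced pluripotent stem cells, taken at 8 days postinfection (dpi). All 4 groups shared the same starting cells, which came from several mixed male embryos (E13.5), and which carried a transgene for EGFP under the Oct4 promoter and enhancer (OE-MEFs). All groups were infected with retroviruses for Oct4, Sox2 and Klf4 (OSK), and the OSKA groups also received AKT-MER, a myristoylated AKT kinase fused to a modified estrogen receptor. 4-hydroxytamoxifen (4OHT), the ligand that switches AKT-MER on, was given from 3 dpi, while the mock cultures received the ethanol vehicle. The groups were thus OSK − 4OHT, OSK + 4OHT, OSKA − 4OHT (AKT-nonactivated cells) and OSKA + 4OHT (AKT-activated cells), with 1 array each. The OSK groups set cells with 4OHT against cells without it in the absence of AKT-MER, as 1 array against 1. The free-text description of the OSKA + 4OHT sample says that AKT-MER was off, which goes against its title, and the title was used.

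BMPs are secreted ligands of the TGF-beta superfamily. They bind a complex of type I and type II serine/threonine kinase receptors, which phosphorylates SMAD1, SMAD5 and SMAD9, and these enter the nucleus with SMAD4 to switch on target genes. The ID genes are the classic immediate targets. ID proteins have a helix-loop-helix domain but no DNA-binding domain, and they hold E proteins away from DNA. In mouse embryonic stem cells BMP4 and ID proteins are known for keeping cells undifferentiated together with LIF, and in fibroblasts undergoing reprogramming BMP signalling is known for its link to the mesenchymal-to-epithelial transition.

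A level below is the log2 intensity of a probe minus the 75th percentile of log2 intensity on its array, and a difference is one array's level minus another's. Levels of different probes cannot be set against each other. With 1 array per group no test was run, and no difference was checked by a replicate. The error model of the scanner software gave an error of 0.14 (log2) for a bright level and of 0.20 for a difference, mostly its preset multiplicative error of 10%. Repeat spots of the same probe gave 0.09 for a difference. Scaling the arrays to their spike-in probes instead moved every difference of a comparison by the same amount, −0.32 for 4OHT in OSK cells, 0.02 for 4OHT in OSKA cells, −0.47 for AKT-MER without 4OHT and −0.12 for AKT-MER with 4OHT. Both errors above cover the measurement on the arrays and not the variation between cultures.

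On the 4 arrays 52.4% to 55.4% of the spots were well above background and none was saturated. All 4 arrays were on 1 slide, and position on the slide and group cannot be told apart. Of 4 probes named Esr1, the estrogen receptor gene that gives AKT-MER its hormone-binding part, 1 had levels of −5.93 and −5.69 on the OSK − 4OHT and OSK + 4OHT arrays, where it was not well above background, and 3.11 and 3.32 on the OSKA − 4OHT and OSKA + 4OHT arrays, as the labels have it. Of the other Esr1 probes 2 were not well above background on any array, and 1 was dim, at −4.20, −5.26, −4.15 and −3.47 on the arrays in the order of the groups above, well above background on all but OSK + 4OHT. The fibroblast label was checked with 10 markers, all well above background on all 4 arrays. Of 9 markers of pluripotent cells 7 were well above background on all 4 arrays, while Zfp42 and Esrrb were not on any. All 4 macrophage markers (Ptprc, Cd68, Adgre1 and Csf1r) were well above background on all 4 arrays. In such bulk RNA fewer cells of a type and less RNA per cell cannot be told apart.

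All 10 genes were measured on all 4 arrays. Under the 75th percentile scaling only 1 of them, Bmp4, spanned at least 2-fold between its highest and lowest array. Of the 19540 genes measured on all 4 arrays 6.89% did so. With that scaling a span of at least 1.5-fold was reached by 6 of the 10 genes (Bmp4, Bmp7, Grem1, Smad6, Id1 and Id3 in the order of the roles above) against 24.7% of all genes. With spike-in scaling Id1 (−1.25) and Id3 (−1.03) also passed 2-fold, from OSK − 4OHT to OSKA − 4OHT. Bmp7 (−0.94, then −0.35) and Smad6 (−0.55, then −0.67) did so over the steps from OSK − 4OHT to OSKA − 4OHT to OSKA + 4OHT. The share of all genes was not counted with it. The highest level lay on the OSK − 4OHT array for 9 of the 10 genes, and Grem1 was highest on the OSK + 4OHT array. Of all genes 31.6% were highest on the OSK − 4OHT array and 22.1% on the OSK + 4OHT array. The lowest level lay on the OSKA + 4OHT array for 7 of the 10 genes, on the OSKA − 4OHT array for Bmp2 and Id2 and on the OSK + 4OHT array for Id4. Of all genes 37.5%, 18.8% and 16.6% were lowest on these arrays. These shares depend on the scaling. With spike-in scaling 87.4% of all genes were lower on the OSK + 4OHT than on the OSK − 4OHT array. On the OSKA − 4OHT array 91.2% were lower than on it. Id4 was then lowest on the OSKA + 4OHT array, at −0.03 against OSK + 4OHT and −0.08 against OSKA − 4OHT.

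**Figure D1:**
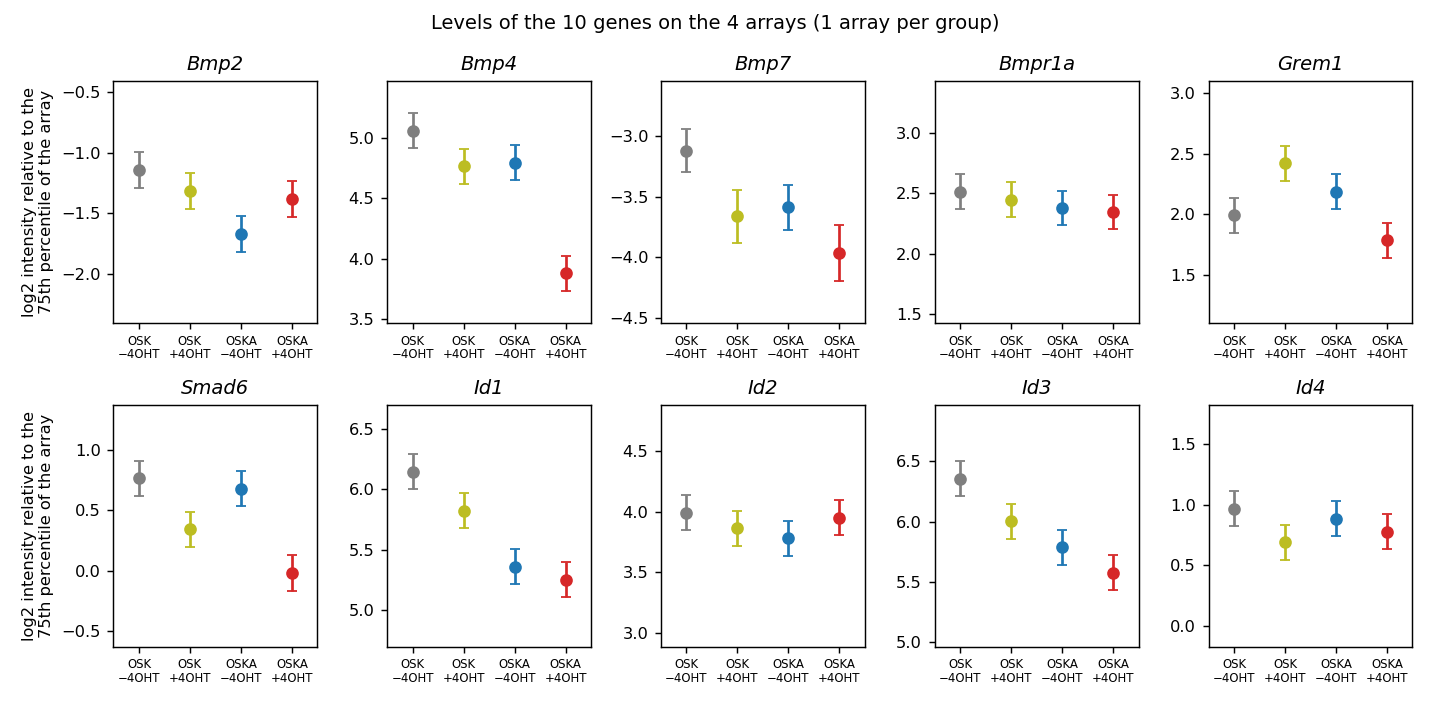
Level of each of the 10 genes on the 4 arrays, as log2 intensity minus the array's 75th percentile (vertical axis, a different range but the same length in each panel), with 1 point per array and group. Bars are the error of the scanner software for 1 array. Bmp4 stands lowest in OSKA + 4OHT at 3.88, Id1 and Id3 are highest in OSK − 4OHT at 6.14 and 6.35, and Bmpr1a lies between 2.35 and 2.51.

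Sequences upstream of 4 of the genes are shown because BMP target genes are known to be controlled through short elements near their starts. SMAD1 and SMAD5 are known to bind GC-rich elements such as GGCGCC, and SMAD4 is known to bind GTCT (AGAC on the other strand). The 250 bases before the annotated start are given 5′ to 3′ on the strand of the gene, from RefSeq on GRCm38.p6, a later build than that of the probe positions. Capitals mark each GGCGCC and each GTCT or AGAC. Bmp4 (chr14:46390670-46390919, minus strand) and Smad6 (chr9:64022060-64022309, minus strand) are among the 7 genes lowest in OSKA + 4OHT cells. Id3 (chr4:136143572-136143821, plus strand) is among the ID genes with the larger differences between OSK and OSKA cells, and Id2 (chr12:25096093-25096342, minus strand) among those with the smaller.
Bmp4: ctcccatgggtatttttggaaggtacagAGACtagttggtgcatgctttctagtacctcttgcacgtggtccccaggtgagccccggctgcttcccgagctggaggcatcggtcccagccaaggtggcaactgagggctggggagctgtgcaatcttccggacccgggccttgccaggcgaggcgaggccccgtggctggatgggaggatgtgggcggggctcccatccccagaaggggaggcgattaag
Smad6: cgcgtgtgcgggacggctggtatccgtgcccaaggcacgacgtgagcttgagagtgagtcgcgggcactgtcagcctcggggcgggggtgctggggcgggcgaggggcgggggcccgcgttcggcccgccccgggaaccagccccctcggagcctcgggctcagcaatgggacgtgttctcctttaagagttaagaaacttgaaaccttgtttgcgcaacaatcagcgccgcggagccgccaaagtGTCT
Id3: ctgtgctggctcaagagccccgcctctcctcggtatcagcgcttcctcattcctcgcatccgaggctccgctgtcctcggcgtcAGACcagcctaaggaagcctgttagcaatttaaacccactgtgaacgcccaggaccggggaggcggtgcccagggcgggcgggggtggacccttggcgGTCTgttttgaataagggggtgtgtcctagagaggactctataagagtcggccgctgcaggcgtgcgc
Id2: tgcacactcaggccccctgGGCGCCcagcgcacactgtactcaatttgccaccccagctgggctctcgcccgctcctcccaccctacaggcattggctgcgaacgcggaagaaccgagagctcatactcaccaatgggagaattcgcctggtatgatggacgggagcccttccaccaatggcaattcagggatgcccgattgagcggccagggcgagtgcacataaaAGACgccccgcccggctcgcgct

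Of the 10 genes 7 had an entry in that table (not Bmp2, Bmp7 and Id1). GGCGCC, which reads the same on both strands, was found within 250 bases before the start of 4 of these 7 (Bmpr1a, Grem1, Id2 and Id4) and of 9.59% of all 32851 promoters in the table. In Id2 it began 231 bases before the start, in Bmpr1a 198, in Id4 148 and in Grem1 78. GTCT on either strand was found in 5 of the 7 and in 82.9% of all promoters, and GGCGCC followed after 5 bases by GTCT, on either strand, in none of the 7 and in 0.07% of all. The sequences of Bmp4, Smad6 and Id3 held no GGCGCC, and all 3 held GTCT or AGAC. Of the 4 genes with GGCGCC, Bmpr1a and Grem1 were lowest in OSKA + 4OHT cells, as were Bmp4, Smad6 and Id3. Under the 75th percentile scaling Id2 and Id4 were lowest on other arrays. A link between these letters and the levels was not tested. These matches describe letters in a window of the reference genome, and elements outside it were not looked at.

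Of the 3 ligands among the 10 genes, Bmp4 had the largest difference. BMP4 is the ligand that induces mesoderm and germ cell precursors in the embryo. The intensity of its bright probe, at chr14:47003391-47003450 on the minus strand (NCBI37), was 15396 in OSK − 4OHT, 10257 in OSK + 4OHT, 11180 in OSKA − 4OHT and 5657 in OSKA + 4OHT cells. The corresponding levels were 5.06, 4.77, 4.79 and 3.88. The OSKA + 4OHT array was low and the OSK − 4OHT array the highest, while OSK + 4OHT and OSKA − 4OHT lay between and differed by 0.03, less than the error of a difference.

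With 4OHT, Bmp4 was lower in both kinds of cells, by a difference of −0.91 (0.532-fold) with AKT-MER and of −0.29 (0.817-fold) without it. Of the 20299 genes measured in the comparison within OSKA cells, 247 (1.22%) were lower by at least as much as Bmp4, and of the 6514 genes that made up the brighter 1 of 3 equal parts by mean level, to which Bmp4 belongs, 27 (0.414%) were. Between OSKA and OSK cells that both had 4OHT the difference was −0.88 (0.542-fold), and 1.64% of genes were lower by at least as much. Between the cells without 4OHT it was −0.26. The comparisons within OSKA cells and between the cells with 4OHT share the OSKA + 4OHT array. The 4OHT difference in OSKA cells minus that in OSK cells was −0.62 (−0.28 with spike-in scaling), and 9.39% of genes lay at least as far in that direction.

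The second Bmp4 probe, at chr14:47003198-47003257 on the same strand, was not well above background on any of the 4 arrays, with intensities of 6.31, 8.49, 5.56 and 4.01 in the order above. The values of Bmp4 therefore rest on 1 probe. Marker lists also differed between the OSKA arrays. With 4OHT the summed level of the fibroblast markers was higher by 0.07 (7 of 10 markers higher), that of the epithelial markers higher by 0.71 (5 of 7 measured markers higher), that of the endothelial markers higher by 0.19 (1 of 3 measured markers higher), that of the pluripotent markers lower (−0.48, 4 of 7 lower) and that of the macrophage markers lower (−0.15, 3 of 4 lower). The part of these cell types in the Bmp4 difference was not tested.

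Bmp2, a ligand close to BMP4 in sequence that is best known in bone and heart, had levels of −1.14 in OSK − 4OHT, −1.32 in OSK + 4OHT, −1.67 in OSKA − 4OHT and −1.38 in OSKA + 4OHT cells. The OSKA − 4OHT array was the low one, unlike for Bmp4. Without 4OHT the OSKA cells were at −0.53 against the OSK cells (0.693-fold), and 4.99% of genes were lower by at least as much. The 4OHT differences were 0.29 in OSKA and −0.18 in OSK cells, and the OSK value lay within the error of 0.21. With spike-in scaling it was −0.49, beyond the error, and the AKT-MER difference without 4OHT was −0.997.

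Bmp7, a ligand of kidney and eye development, was dim. Its intensities were 53.1 in OSK − 4OHT, 29.7 in OSK + 4OHT, 33.5 in OSKA − 4OHT and 24.5 in OSKA + 4OHT cells, with levels of −3.12, −3.66, −3.59 and −3.97. The OSK − 4OHT array was the high one. The differences ran from −0.54 (4OHT in OSK cells) to −0.30 (AKT-MER with 4OHT), the error of each being 0.26 to 0.32, so that the AKT-MER difference with 4OHT lay within it. With normexp background correction the differences were −0.22 and −0.15 with 4OHT in OSK and OSKA cells and −0.23 and −0.16 for AKT-MER without and with 4OHT, all within the error.

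Bmpr1a, the type I receptor that binds BMP2 and BMP4, had the smallest span of the 10 genes under the 75th percentile scaling. Its levels were 2.51 in OSK − 4OHT, 2.45 in OSK + 4OHT, 2.38 in OSKA − 4OHT and 2.35 in OSKA + 4OHT cells, a span of 0.17 that is within the error of a single difference. The 4 differences lay between −0.13 and −0.03. With spike-in scaling those for AKT-MER without 4OHT (−0.60), for 4OHT in OSK cells (−0.38) and for AKT-MER with 4OHT (−0.23) lay beyond the error.

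Grem1 encodes gremlin, a secreted protein that captures BMP2 and BMP4. It was the only 1 of the 10 genes that was not highest in OSK − 4OHT cells, with levels of 1.99 in OSK − 4OHT, 2.42 in OSK + 4OHT, 2.19 in OSKA − 4OHT and 1.78 in OSKA + 4OHT cells. When the arrays were sorted by level, neighbours differed by 0.20 to 0.23, about the error of a difference. With 4OHT Grem1 was higher without AKT-MER (0.43, 1.345-fold) and lower with it (−0.41, 0.755-fold), and with spike-in scaling the first value was 0.11, within the error. The 4OHT difference in OSKA minus that in OSK cells was −0.83 (−0.49 with spike-in scaling), and 4.88% of genes lay at least as far in that direction. Between OSKA and OSK cells Grem1 was at −0.64 with 4OHT and at 0.20 without it, and the last value lay within the error and turned to −0.27 when arrays were scaled to the spike-in probes.

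Smad6 is an inhibitory SMAD, itself a target of BMP signalling, that acts as a brake on the type I receptors. Its levels were 0.76 in OSK − 4OHT, 0.34 in OSK + 4OHT, 0.68 in OSKA − 4OHT and −0.02 in OSKA + 4OHT cells. Both arrays with 4OHT were lower than both arrays without it. The 4OHT difference was −0.70 in OSKA cells (0.617-fold, with 2.93% of genes lower by at least as much) and −0.42 in OSK cells (0.746-fold, 4.55% of genes). The difference between OSKA and OSK cells was −0.09 without 4OHT, within the error (−0.55 with spike-in scaling, beyond it), and −0.36 with it. The OSKA value was lower than the OSK value by 0.27 (−0.27), a gap that turned to 0.069 when arrays were scaled to the spike-in probes.

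Of the 10 genes, Id1 and Id3 differed most between OSKA and OSK cells in the absence of 4OHT under the 75th percentile scaling. Id3 (−0.57) and Bmp2 (−0.53) were apart by less than the error. With quantile normalization their order changed, at −0.54 for Id3 and −0.57 for Bmp2. Id1 and Id3 are both well known early targets of BMP signalling. The intensity of Id1, at chr2:152563083-152563142 on the plus strand (NCBI37), was 32676 in OSK − 4OHT, 21301 in OSK + 4OHT, 16544 in OSKA − 4OHT and 14630 in OSKA + 4OHT cells. That of Id3, whose probe lies between 135700075 and 135700249 on chromosome 4, was 37798, 24170, 22263 and 18314 in the same order. Both genes had the same order of arrays, with both OSK arrays above both OSKA arrays.

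In levels, Id1 stood at 6.14, 5.82, 5.36 and 5.25, and Id3 at 6.35, 6.004, 5.79 and 5.58, again in the order OSK − 4OHT, OSK + 4OHT, OSKA − 4OHT and OSKA + 4OHT. The 2 OSKA levels of Id1 differed by 0.11, within the error, while the neighbouring levels of Id3 differed by 0.21 to 0.35. Without 4OHT the OSKA cells were at −0.79 for Id1 (0.580-fold) and at −0.57 for Id3 (0.675-fold), and 2% and 4.29% of all genes were lower by at least as much. Among the 6514 brighter genes, to which both belong, these shares were 0.307% for Id1 and 1.38% for Id3. With 4OHT the differences were −0.57 for Id1 and −0.43 for Id3. In OSK cells 4OHT went with −0.32 for Id1 and −0.35 for Id3, and in OSKA cells with −0.11 and −0.21. The AKT-MER comparison without 4OHT and the 4OHT comparison in OSK cells share the OSK − 4OHT array, on which both genes were highest.

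Under the 75th percentile scaling, used for the values below, the summed macrophage, endothelial and fibroblast markers were all lowest on the OSK − 4OHT array. Spike-in scaling shifts OSK + 4OHT by −0.32 and OSKA − 4OHT by −0.47 against that array. It shifts OSKA + 4OHT by 0.02 against OSKA − 4OHT. The fibroblast sum then falls below its OSK − 4OHT value on the other arrays. The endothelial sum does so on both OSKA arrays and the macrophage sum on OSKA + 4OHT. The summed level of the macrophage markers was 6.74 in OSK − 4OHT, 7.32 in OSK + 4OHT, 7.28 in OSKA − 4OHT and 7.14 in OSKA + 4OHT cells, and all 4 of them were higher on the OSK + 4OHT and OSKA − 4OHT arrays than on the OSK − 4OHT array, by 0.40 to 0.64. The endothelial sum was 3.00, 3.57, 3.16 and 3.34 in the same order, with 1 of the 3 measured markers higher and 2 lower in OSK + 4OHT than in OSK − 4OHT cells, and Cdh5 not well above background. That of the fibroblast markers was 10.62, 10.68, 10.81 and 10.88, with 5 of the 10 markers higher and 5 lower in OSK + 4OHT, and 8 higher and 2 lower in OSKA − 4OHT, than in OSK − 4OHT cells. The epithelial sum was 2.20, 1.85, 1.396 and 2.11, with 5 of 6 measured markers lower in either of those comparisons. For the pluripotent markers it was 2.004, 2.35, 2.37 and 1.89, although 5 and 4 of the 7 measured markers were lower in these comparisons, with medians of −0.04 and −0.18. The part of these cell types in the Id1 and Id3 differences was not tested.

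**Figure D2:**
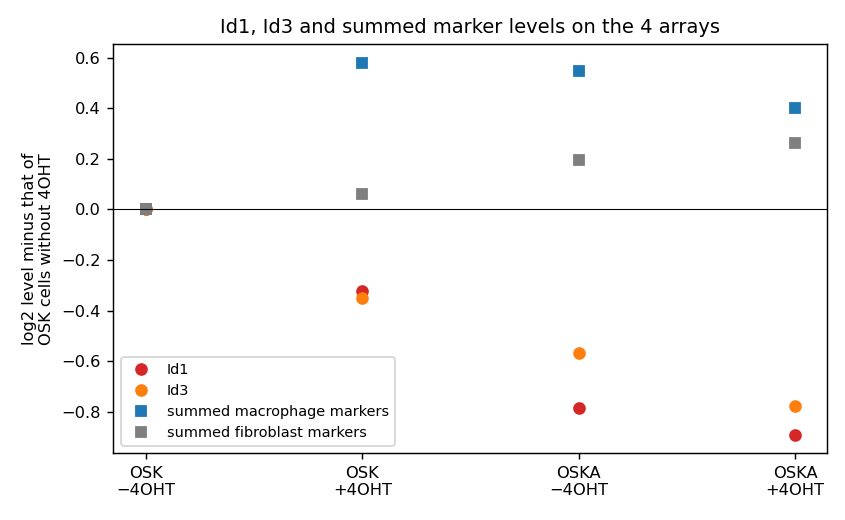
Levels of Id1 and Id3 and summed levels of 4 macrophage and 10 fibroblast markers on the 4 arrays (horizontal axis), each as log2 level minus its own level in OSK − 4OHT cells (vertical axis), with 1 point per array. Id1 and Id3 lie below 0 and the marker sums above 0 on the other 3 arrays, though in OSK + 4OHT cells the fibroblast sum is at 0.06 with 5 of its 10 markers lower, with the macrophage sum 0.58 and Id1 −0.32 in OSK + 4OHT cells. The shifts of spike-in scaling take the fibroblast sum below 0 on all 3 of these arrays and the macrophage sum below 0 in OSKA + 4OHT cells.

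Under the 75th percentile scaling Id2 and Id4 spanned less than the other ID genes. ID2 is known from lymphoid and mammary cells, and ID4 from the nervous system and the male germ line. Id2, whose upstream sequence above holds GGCGCC, had levels of 3.99 in OSK − 4OHT, 3.86 in OSK + 4OHT, 3.78 in OSKA − 4OHT and 3.95 in OSKA + 4OHT cells. The levels of Id4 were 0.97, 0.69, 0.88 and 0.78 in the same order.

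Neighbouring levels of either gene differed by 0.04 to 0.11, within the error. The differences beyond it were −0.21 for Id2 in the AKT-MER comparison without 4OHT and −0.28 for Id4 with 4OHT in OSK cells. With spike-in scaling these were −0.68 and −0.60, and Id2 with 4OHT in OSK cells (−0.45) and Id4 for AKT-MER without 4OHT (−0.55) also passed the error. With 4OHT, Id2 and Id4 were both at 0.09 in OSKA against OSK cells, opposite in sign to Id1 and Id3 but within the error, and turned to −0.04 and −0.03 when arrays were scaled to the spike-in probes. Within the ID family, the AKT-MER differences of Id1 and Id3 ran from −0.79 to −0.43 and those of Id2 and Id4 from −0.21 to 0.09. With spike-in scaling these ranges overlapped across the comparisons, from −1.25 to −0.55 and from −0.68 to −0.03.

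The 10 genes were then counted in each comparison. With 4OHT in OSKA cells none of the 10 was at least 2-fold different, while 2.91% of the 20299 measured genes were, in either direction. At 1.5-fold 2 of the 10 were lower (Bmp4 and Smad6) against 4.63% of all genes, and none was higher against 5.06%. The median difference of the 10 genes was −0.16, with 8 lower and 2 higher (Bmp2 and Id2), and that of all genes −0.03, with 54.8% of them below 0.

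With 4OHT in OSK cells none of the 10 was at least 2-fold different either, against 0.886% of all genes, and at 1.5-fold none was lower against 1.63% and none higher against 4.33%. The differences were nevertheless mostly in 1 direction. The median of the 10 genes was −0.28, with 9 lower and Grem1 higher, against −0.00 for all genes, of which 50.6% lay below 0. With spike-in scaling the median was −0.60, and 87.4% of all genes lay below 0. The SD of the differences of all genes was 0.30.

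Without 4OHT, OSKA against OSK cells, none of the 10 was at least 2-fold different against 2.02% of all genes. At 1.5-fold Id1 was lower, against 3.99% of all genes, and none was higher, against 5.66%. The median was −0.24, with 9 lower and Grem1 higher, against −0.02 for all genes, of which 53.0% lay below 0. When arrays were scaled to the spike-in probes all 10 were lower, as were 91.2% of all genes, the median was −0.71, and Id1 (−1.25) and Id3 (−1.03) were at least 2-fold lower, as were 4.95% of all genes.

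With 4OHT, OSKA against OSK cells, none was at least 2-fold different against 3.04% of all genes, and at 1.5-fold Bmp4 and Grem1 were lower against 5.1% and none was higher against 5.46%. The median was −0.33, with 8 lower and Id2 and Id4 higher, against −0.05 for all genes, of which 57.1% lay below 0. With spike-in scaling all 10 were lower, as were 72.6% of all genes, and Bmp4 (−1.01) was at least 2-fold lower, as were 1.67% of all genes. The comparisons share arrays in pairs, so the 4 medians are not independent of each other.

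**Figure D3:**
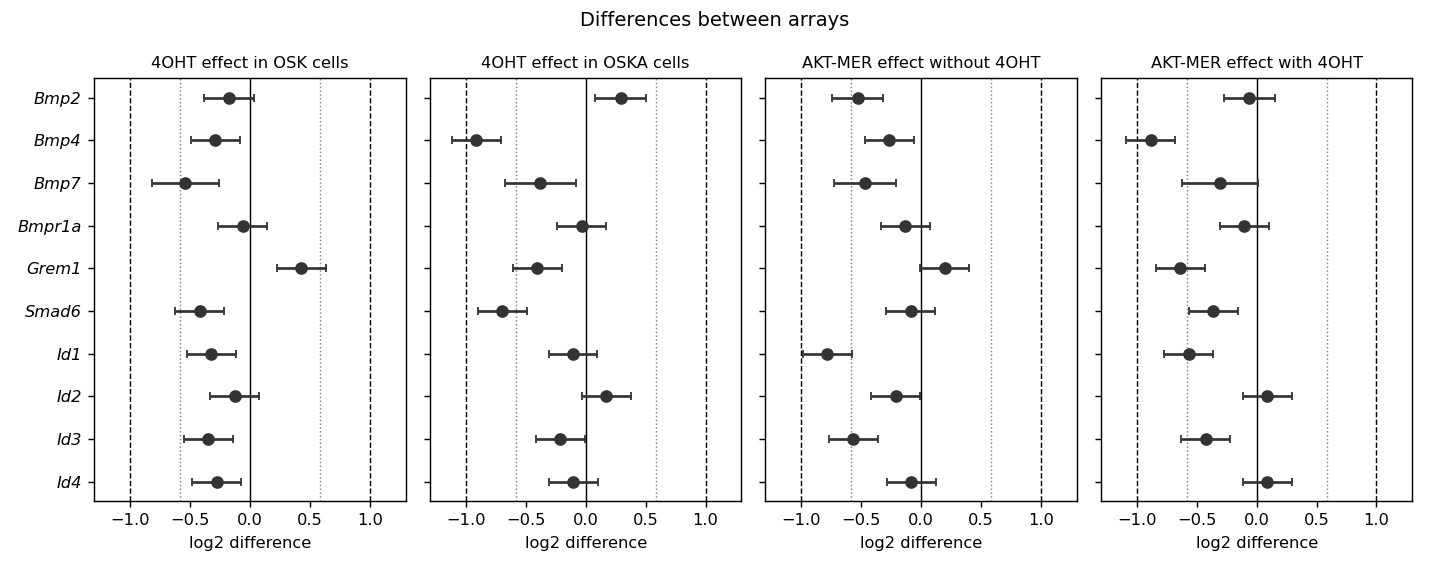
Log2 difference of each of the 10 genes (rows) in the 4 comparisons (panels), with the error of the scanner software for a difference as bars. The solid line is 0, dotted lines mark 1.5-fold and dashed lines 2-fold. Points lie mostly left of 0, none passes 2-fold (with spike-in scaling Id1 and Id3 without 4OHT and Bmp4 with 4OHT do in the AKT-MER panels), and Bmp4 lies furthest left in OSKA cells with 4OHT at −0.91. With spike-in scaling Grem1 without 4OHT and Id2 and Id4 with 4OHT change sides in the AKT-MER panels.

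The other genes of the pathway were counted next. In 6 lists of 54 genes (ligands, receptors and co-receptors, antagonists, intracellular signal, other targets and E proteins), 42 or 43 were measured in each comparison. Their medians were −0.09 with 4OHT in OSK cells, −0.02 with 4OHT in OSKA cells, −0.07 for AKT-MER without 4OHT and −0.05 for AKT-MER with 4OHT. Under the 75th percentile scaling and by the brightest probe of each gene, none was at least 2-fold lower in any comparison. At least 2-fold higher were 0, 3, 1 and 2 in that order. Of all genes 0.609%, 2.01%, 1.09% and 1.92% were at least 2-fold higher and 0.277%, 0.902%, 0.932% and 1.12% at least 2-fold lower. The shift of spike-in scaling with 4OHT in OSK cells (−0.32) takes Hey1 (−0.73) past 2-fold lower. That for AKT-MER without 4OHT (−0.47) takes Alpl (−0.97) and Dlx2 (−0.65) past it and Bmpr1b (1.21) back below 2-fold higher. Of all genes 0.972% and 4.95% were then at least 2-fold lower in these comparisons.

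Among the ligands 1 gene passed 2-fold. Gdf5, a ligand of joint and cartilage formation, had levels of −1.18 in OSK − 4OHT, −1.35 in OSK + 4OHT, −1.58 in OSKA − 4OHT and −0.12 in OSKA + 4OHT cells. It was thus high only on the OSKA + 4OHT array of these 4, with a 4OHT difference of 1.46 in OSKA cells and −0.17 in OSK cells, and its other probe gave 1.14 in OSKA cells. Of 11 ligands 5 (Bmp5, Bmp8b, Bmp10, Bmp15 and Gdf2) were not well above background on any array.

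Bmpr1b, the type I receptor that prefers GDF5, was the receptor that passed 2-fold. It was dim, with levels of −3.92 in OSK − 4OHT, −3.00 in OSK + 4OHT, −2.71 in OSKA − 4OHT and −2.36 in OSKA + 4OHT cells, and its other probe was not well above background. The AKT-MER difference was 1.21 without 4OHT and 0.64 with it. Spike-in scaling shifted the comparison without 4OHT by −0.47, which takes the value of 1.21 below 2-fold. Over the receptors the medians lay between −0.09 and 0.02. With spike-in scaling they were −0.32 and 0.05 with 4OHT in OSK and OSKA cells, and −0.48 and −0.21 for AKT-MER without and with 4OHT.

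Among the antagonists Sostdc1 passed 2-fold. Sostdc1, an antagonist of BMP and WNT signals, had levels of 2.13 in OSK − 4OHT, 2.12 in OSK + 4OHT, 1.86 in OSKA − 4OHT and 3.58 in OSKA + 4OHT cells. Its 4OHT difference was 1.72 in OSKA and −0.01 in OSK cells, and its other probe gave 1.63 in OSKA cells. Sostdc1 was thus higher on the array on which Bmp4 and Smad6 were lowest.

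The intracellular signal genes held none that passed 2-fold. Of 7 genes 6, 5, 6 and 6 were lower in the 4 comparisons in the order above, in which 50.6%, 54.8%, 53.0% and 57.1% of all genes lay below 0. The medians of the list were −0.17, −0.28, −0.19 and −0.20. With spike-in scaling they were −0.49, −0.26, −0.66 and −0.32, and 87.4%, 51.1%, 91.2% and 72.6% of all genes lay below 0. Smad1, a transducer of the signal, was the highest of the list with 4OHT in OSKA cells at 0.03, and Smad7, the other inhibitory SMAD, was the lowest at −0.65. In levels Smad7 stood at 0.76 in OSK − 4OHT, 0.73 in OSK + 4OHT, 0.71 in OSKA − 4OHT and 0.06 in OSKA + 4OHT cells. Smad7 was therefore low on 1 array, whereas Smad6 was lower on both arrays with 4OHT.

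Of the other targets of BMP signalling, 9 of 10 were measured, and 8, 6, 6 and 5 were lower in the same order, with medians of −0.41, −0.12, −0.09 and −0.05. The median for AKT-MER without 4OHT was −0.41 with the mean of all probes and −0.55 with spike-in scaling. Another probe of Runx2, the master transcription factor of bone, was well above background on all 4 arrays and gave 1.75 with 4OHT in OSK cells and −1.73 for AKT-MER with 4OHT, where the brightest probe that stands for the gene gave −0.08 and −0.34. The shares of all genes below 0 are those given for the intracellular list. Alpl, the alkaline phosphatase of bone and of pluripotent cells, went the other way with 4OHT in OSKA cells at 1.503, its levels being −2.10 in OSK − 4OHT, −2.53 in OSK + 4OHT, −3.08 in OSKA − 4OHT and −1.58 in OSKA + 4OHT cells. Atoh8, a transcription factor gene and direct BMP target, was picked out after its values were seen. Its 4OHT difference was −0.85 with AKT-MER and −0.32 without it, close to that of Bmp4 in both.

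The E proteins, the partners that ID proteins bind, held no gene that passed 2-fold. The 3 genes were all measured, and with 4OHT in OSKA cells Tcf12 was the highest at 0.14 and Tcf4 the lowest at −0.29, while their other probes gave 0.37 and 0.00. The other Tcf12 probe also gave −0.50 with 4OHT in OSK cells and 0.63 for AKT-MER with 4OHT, where the brightest gave 0.01 and 0.25. For AKT-MER with 4OHT Tcf4 was at −0.35. The 4 medians of the list lay between −0.01 and 0.06, and with spike-in scaling between −0.41 and 0.01.

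**Figure D4:**
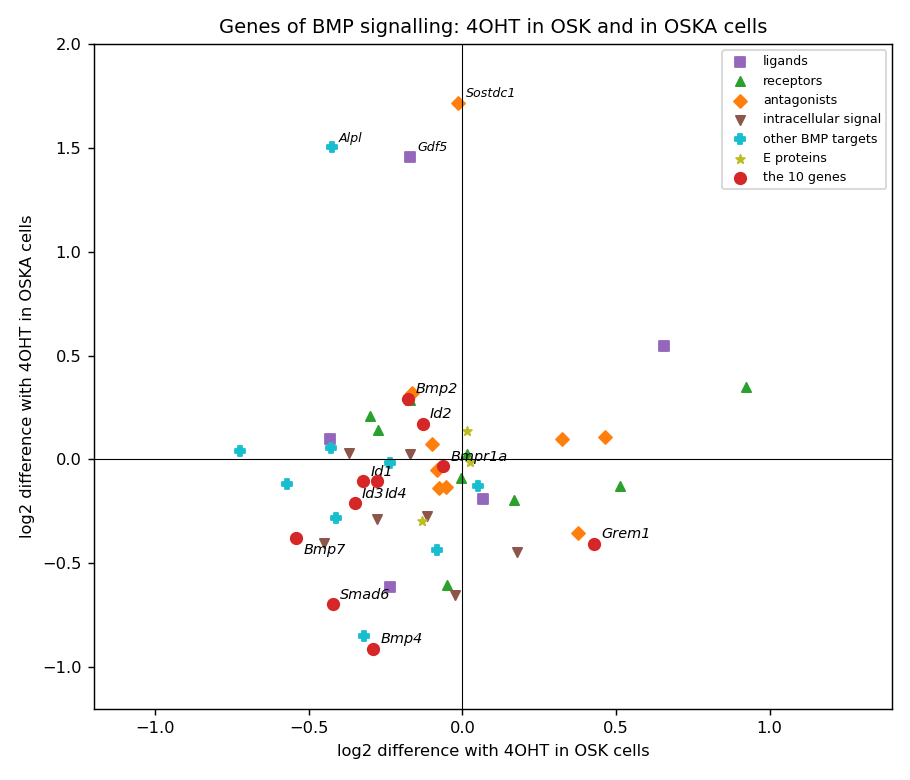
Log2 difference with 4OHT in OSK cells (horizontal axis) against that in OSKA cells (vertical axis) for the 10 genes and for the measured genes of the 6 pathway lists, with 1 point per gene and the lists by colour and shape. The axes share no array. Bmp4 and Smad6 lie at the bottom left at −0.91 and −0.70 on the vertical axis, and Gdf5, Sostdc1 and Alpl at the top at 1.46, 1.72 and 1.503.

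The pattern of Bmp4, the gene of the 10 with the largest span, was compared with that of all 14277 genes with a symbol measured on all 4 arrays, as the root mean square distance of the levels over the 4 arrays after each gene was centred on its mean. The closest genes were Car10 (0.053), 9130019O22Rik (0.062), Anxa3 (0.063), Igf1r (0.065) and Slc38a4 (0.068). All 5 were highest in OSK − 4OHT and lowest in OSKA + 4OHT cells, as Bmp4 was, which follows from their choice by closeness to it. The distances over 4 arrays are a description.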

How the data were processed

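Gene expression was measured in 4 cultures on single-colour Agilent arrays, 1 per group. Per the labels, Cy3-labelled cRNA was hybridised and scanned. The deposited scanner files hold linear intensity values, which the authors' scanner software (Agilent Feature Extraction 10.7.3.1, per the submitters' processing notes) had corrected for background and not normalized between arrays. A deposited table of the whole series holds the same intensity, rounded.

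The log2 intensity of each spot was reduced by the 75th percentile of its array over spots that were not controls and not marked as outliers. This left out 104 to 155 marked spots on an array. Spots of a probe were averaged, and each gene was represented by its brightest probe. RefSeq names were found for 49.4% of probes, and others kept the array's name. Differences were taken for probes marked well above background on each array compared, and genes were counted at 2-fold. With 1 array per group no test was run, and the number of arrays limits the precision.

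Named were the 10 genes, the genes of 6 pathway lists at least 2-fold different in a comparison (or else the highest and lowest of a list with 4OHT in OSKA cells) and the 5 genes closest in pattern to the member with the largest span. Atoh8, Runx2, Hey1 and Dlx2 lie outside this rule under the 75th percentile scaling and were named after their values were seen. The members and lists were chosen with earlier results of these data known. A further gene of the lists is not reported here and was left out of them. Alternatives, numbering 8, were quantile normalization, normexp (offset 50) with quantile normalization in limma 3.58.1 (R 4.3.3), scaling to spike-in probes, no filter, a filter on all 4 arrays, the series table, the mean of all probes and a 1.5-fold threshold. Calculations used Python 3.11.15, numpy 2.4.6 and pandas 2.3.3 and were tested on simulated data. Probe positions are those of the files (NCBI37), and the place of probes within transcripts was not analysed here.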

Additional observations from a re-analysis of the deposited data

Results flagged for a closer look

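The following genes differed in opposite directions in paired comparisons, and with 1 array per group the difference between the comparisons was not tested. For Bmp2 the 4OHT difference was −0.18 in OSK cells and 0.29 in OSKA cells, a gap of 0.47 (log2), or 0.81 with spike-in scaling. For Grem1 the 4OHT difference was 0.43 in OSK cells and −0.41 in OSKA cells, a gap of −0.83 (with spike-in scaling 0.11 and −0.38, a gap of −0.49). For Id2 it was −0.13 and 0.17, a gap of 0.30, with both values within the error of the scanner software for a difference (0.20). With spike-in scaling the Id2 values were −0.45, beyond the error, and 0.20, a gap of 0.64.

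The differences between OSKA and OSK cells, which rest on the same 4 arrays and so repeat these gaps, were opposite for Grem1 (0.20 without and −0.64 with 4OHT, a gap of −0.83), for Id2 (−0.21 and 0.09, a gap of 0.30) and for Id4 (−0.08 and 0.09, a gap of 0.17). Both Id4 values, the 0.20 of Grem1 and the 0.09 of Id2 lay within the error. With spike-in scaling each pair had the same sign, at −0.27 and −0.76 for Grem1, −0.68 and −0.04 for Id2 and −0.55 and −0.03 for Id4.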

How the results depend on the processing

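No paired analysis was possible because there was 1 array per group and the labels give no replicate numbers. For the same reason no array could be left out, and the errors given cover the arrays and not the cultures. Of 280 differences of the 10 genes under 7 alternatives, 257 moved by less than the error of the scanner software (0.20) and 23 by more. No filter, the filter on every array and the mean of all probes could not move them. Each gene had only 1 probe well above background, and it was so on every array. The series table holds the same intensity, rounded. The count of 257 therefore includes values that were fixed in advance. Signs changed only with spike-in scaling, for Grem1 without 4OHT (−0.27) and for Id2 (−0.04) and Id4 (−0.03) with 4OHT between OSKA and OSK cells. The 4OHT difference of Bmp4 in OSKA cells ranged from −0.91 to −0.87 and that of Smad6 from −0.70 to −0.62. Scaling to the spike-in probes shifted the all-gene median by −0.32 with 4OHT in OSK cells, by −0.47 for AKT-MER without 4OHT and by −0.12 with it. The median of the 10 genes became −0.60 with 4OHT in OSK cells and −0.71 for AKT-MER without 4OHT, and the median gap between the 4OHT differences in OSKA and OSK cells became 0.49. The gap of Smad6 between the 4OHT differences reversed to 0.069, and the median of the ligands for AKT-MER without 4OHT, 0.21, reversed to −0.26 and, with no filter, to −0.17. The cause of these shifts was not tested. Members lower by at least the threshold numbered 2 for AKT-MER without 4OHT and 1 with 4OHT under spike-in scaling, and at 1.5-fold 2 with 4OHT in OSKA cells, 1 for AKT-MER without 4OHT and 2 with 4OHT. Over all genes, the count at least 2-fold different was 176 with 4OHT in OSK cells, 591 with 4OHT in OSKA cells, 407 for AKT-MER without 4OHT and 603 with 4OHT. In that order, normexp gave 30, 202, 74 and 242, no filter 2477, 3336, 2992 and 3146, and the 1.5-fold threshold 1182, 1968, 1948 and 2097. The mean of all probes gave 425 with 4OHT in OSK cells and 699 for AKT-MER without 4OHT, and spike-in scaling 1038 for the latter. The share of these calls that were lower was 31.2%, 31.0%, 46.2% and 36.8%, and 85.8%, 26.8%, 96.3% and 52.5% with spike-in scaling. Normexp made it 15.8% with 4OHT in OSKA cells and 25.6% for AKT-MER with 4OHT. Values of dim genes such as Bmp7 and Bmpr1b are limited by their signal over background.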
